A study of Mus musculus with 6 samples.

Results

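Red cell genes were examined in 6 RNA sequencing libraries of mouse leukaemia cells, as the rows of the count table whose symbols are on a list of 36 genes for globins, the red cell membrane, haem synthesis and erythroid transcription factors. The table holds 53819 genes; 35 of the 36 symbols had a row, and Ahsp was not analysed here. All 35 passed the filter on low counts, which left 15232 genes to test. The rule picks rows by symbol alone and uses no measured value, but the list was drawn up with earlier results of these data known.

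The leukaemia carries BCR-ABL and NUP98-HOXA9, fusion genes used together in mice as a model of chronic myeloid leukaemia in blast crisis. Primary cells of it were transplanted into mice, and leukaemia cells were sorted from the spleen. Group KO holds 3 libraries with the genotype SLC6A6 KO and group WT holds 3 with the genotype SLC6A6 WT; both groups share the fusions, the transplantation and the organ. Slc6a6 encodes the taurine transporter, and the design asks how its loss changes these cells. The title names a knock-down instead. The allele, the strain, age and sex of the animals, the sorting marker and the number of mice behind each library were looked for and not given in the sources used here. P-values therefore measure only the spread between these libraries, which may be technical.

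Each library held between 42829294 and 49537098 counts. Levels are in CPM, the read count scaled for library size (here by TMM), and 3 values of a group follow the library numbers 1, 2 and 3. Slc6a6 itself stood at 125, 132 and 133 CPM in KO and 151, 145 and 145 CPM in WT, so its transcript was lower but present in the libraries labelled KO. The KO libraries had 10274 to 11236 counts of 4 Y-linked genes and the WT libraries 0 or 1, so genotype and sex-linked expression cannot be told apart in any result; Alas2 and Gata1 lie on the X chromosome. Of 8 markers of leukaemic progenitors, Hoxa9 (97.3 to 140 CPM), Meis1 (107 to 179 CPM) and Ptprc, the pan-leukocyte antigen CD45 (50.1 to 148 CPM), were present in every library. Itgam stayed below 2 CPM, Cd34 lay at 0.878 to 2.42 CPM in KO and 3.14 to 16.9 CPM in WT, and Mpo ranged from 0 to 53.1 CPM. Kit differed in the opposite direction to Cd34, with 44.6 to 75.9 CPM in KO and 9.90 to 25.6 CPM in WT. Cd33 ranged from 0.105 to 6.26 CPM.

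Red cells are made from progenitors that respond to erythropoietin through its receptor, Epor, and that take up iron through the transferrin receptor, Tfrc. The transcription factors GATA1 and KLF1 switch on the globin genes, the enzymes of haem synthesis and the proteins of the red cell membrane as erythroblasts mature. Haem synthesis starts in the mitochondrion with ALAS2 and ends there with ferrochelatase, and each haem is held by a globin chain. In mice the spleen is a site of red cell production, which expands under stress.

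The members made up 3.68%, 1.41% and 4.01% of the total in KO, and 0.710%, 1.89% and 1.21% in WT (the 95% exact binomial interval, which covers counting error only, ran from 0.708% to 0.712% in WT1 and from 3.67% to 3.68% in KO1). KO1 and KO3 were the highest libraries, WT1 was the lowest, and KO2 lay between WT3 and WT2, so the groups overlapped. This order was nearly general. In 14 of the 35 genes the libraries ranked KO3, KO1, WT2, KO2, WT3, WT1 from high to low, and in 8 more only KO2 and WT3 changed places. KO2 was the lowest KO library in 34 of 35 members (33.8% of all tested genes), WT2 the highest WT library in 33 (35.3%), and WT1 the lowest of all 6 in 31 (18.3%). KO2 was below WT2 while KO1 and KO3 were above every WT library in 28 of 35 members, against 6.27% of tested genes. In bulk samples, fewer erythroid cells and less erythroid RNA per cell cannot be told apart.

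**Figure D1:**
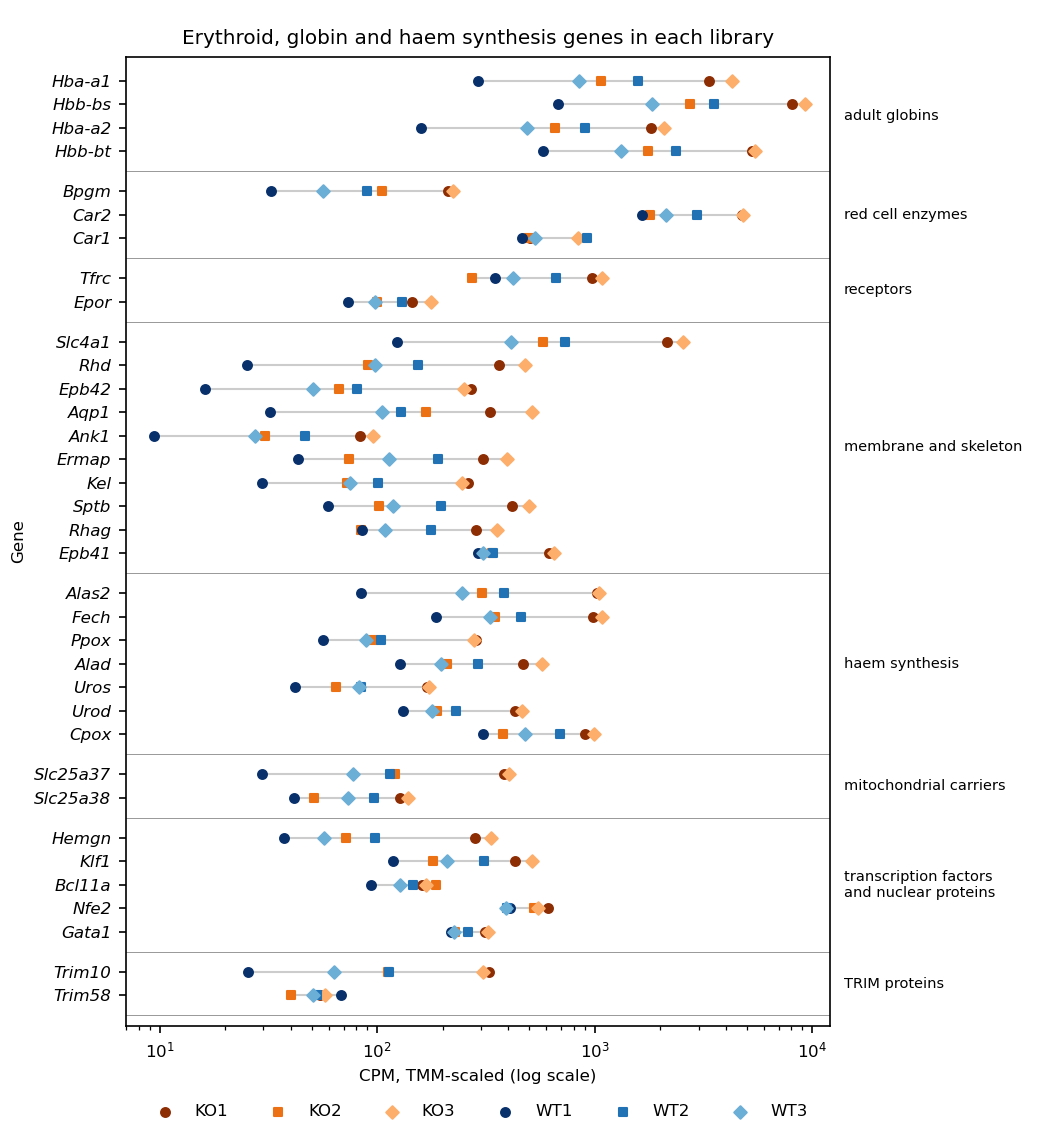
Level of each gene in each of the 6 libraries, in CPM on a log axis, with genes grouped by role and ordered by their range. Grey lines join the lowest and the highest library. In most rows KO1 and KO3 lie at the right, WT1 at the left, and KO2 among the WT libraries, while Nfe2 and Gata1 span the narrowest ranges.

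Against WT, 33 of the 35 members had a positive log2 fold change, where 50.9% of all tested genes did, and 21 of 35 were at least 2-fold higher in KO (8.57% of tested genes). The median log2 fold change was 1.30, with quartiles of 0.72 and 1.71, against 0.01 over all genes tested. Only Nfe2 rose, as judged by edgeR's quasi-likelihood test at a Benjamini-Hochberg adjusted p under 0.05, and 0 fell. That is 1 of 35, where 3.56% of all tested genes were called, 1.64% as higher and 1.92% as lower. At an unadjusted p below 0.05, 20 of 35 members were higher, against 11.6% of tested genes. Most members share a like order of libraries, so these 20 are not separate lines of evidence. The groups did not overlap in 5 members, Bpgm, Aqp1, Slc25a37, Nfe2 and Bcl11a, all higher in KO, which is a share close to the 13.6% of tested genes that did so. The call count changed whichever library was left out. Without KO2, 5 of 35 rose, against 2.32% of tested genes called higher in that fit. These were Nfe2, Epb41, Ppox, Hemgn and Urod, at adjusted p-values of 0.0361, 0.0188, 0.0309, 0.0409 and 0.0431 in edgeR's test. Without any of the other 5 libraries none of the 35 passed edgeR's test, where 6 to 25 had an unadjusted p below 0.05 and 0.295% (without KO1), 0.237% (KO3), 0.676% (WT1), 0.424% (WT2) and 0.081% (WT3) of tested genes were called higher, and Nfe2 had adjusted p-values of 0.0625 to 0.139. DESeq2's Wald test called 7 of 35 higher (7.06% of tested genes), namely Nfe2, Bpgm, Epb41, Urod, Aqp1, Slc25a37 and Trim10.

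**Figure D2:**
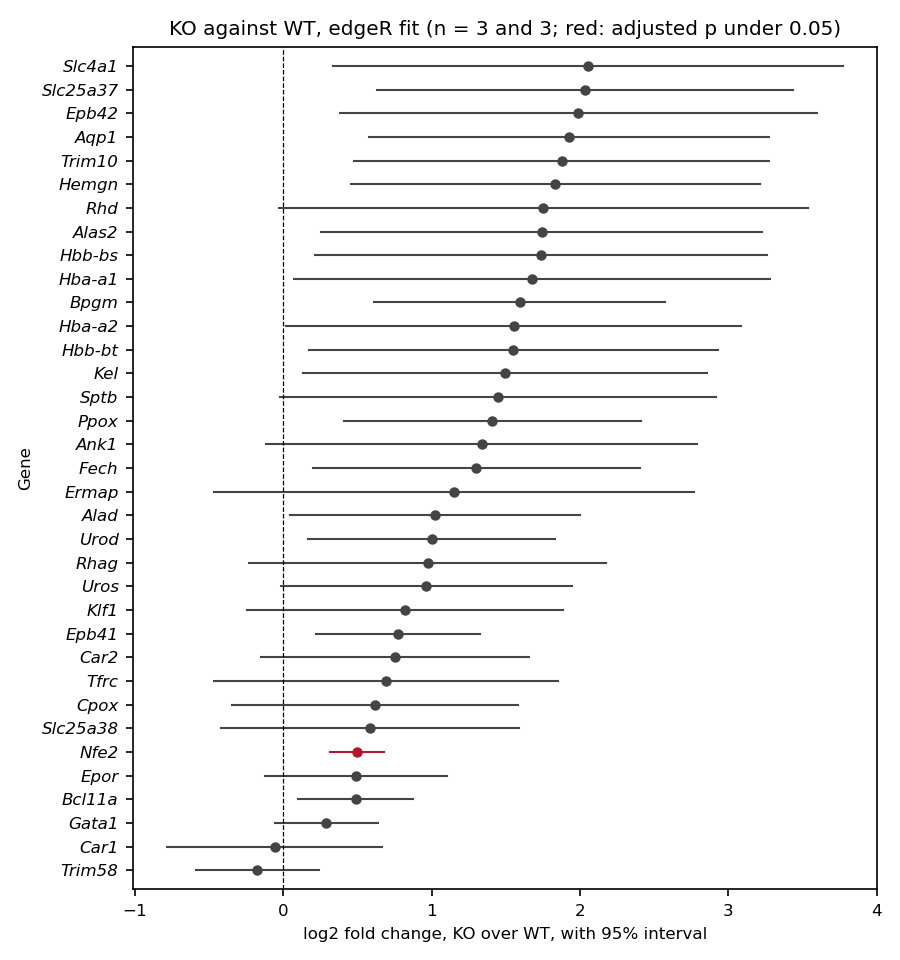
Log2 fold change of each gene, KO over WT, from the edgeR fit on 3 and 3 libraries; points are estimates and lines 95% intervals. Nfe2, in red, is the only gene with an adjusted p below 0.05, and the widest intervals belong to genes with large fold changes such as Rhd.

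As a group, the adult globin genes were the most abundant role in 5 of the 6 libraries; in WT1 they summed to 1708 CPM, below the red cell enzymes at 2149 CPM. The alpha chains of mouse haemoglobin come from Hba-a1 and Hba-a2 and the beta chains from Hbb-bs and Hbb-bt. Hbb-bs was measured at 8103, 2733 and 9284 CPM in KO, and at 680, 3520 and 1838 CPM in WT. Hba-a1 was at 3368, 1069 and 4256 CPM in KO and at 291, 1580 and 845 CPM in WT. Hba-a2 was at 1823, 657 and 2076 CPM in KO and at 159, 904 and 489 CPM in WT. In each of the 4 globin genes, Hbb-bt (5299, 1755 and 5437 against 578, 2373 and 1314 CPM) included, KO2 lay between WT3 and WT2, so the groups overlapped, and the highest library exceeded the lowest 9.41-fold (Hbb-bt) to 14.6-fold (Hba-a1). The log2 fold changes lay between 1.55 and 1.74. For Hbb-bs it was 1.74 ± 0.65 (SE, n = 3 against 3), with a 95% interval from 0.21 to 3.26 and an adjusted p of 0.178 in edgeR's quasi-likelihood test.

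The balance of globin chains changed far less than their amount. Alpha to beta reads stood in a ratio of 0.387, 0.385 and 0.430 in KO, and 0.358, 0.421 and 0.423 in WT. These ranges overlapped, while the globin share of counts ran from 0.174% (95% exact interval 0.173% to 0.175%) in WT1 to 2.03% (2.02% to 2.03%) in KO3. The ratio of Hbb-bs to Hbb-bt was 1.53, 1.56 and 1.71 in KO and 1.18, 1.48 and 1.40 in WT, with WT1, the library with the least globin, the lowest. The ratio of Hba-a1 to Hba-a2 was 1.63 to 2.05 in KO and 1.73 to 1.83 in WT. Hba-a1 and Hba-a2 are near-identical copies, as are Hbb-bs and Hbb-bt to a lesser degree, and the handling of reads with several matches was not stated, so the split within each pair is uncertain. Ratios of reads are not corrected for length.

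Because the globin genes and Alas2 varied together across libraries, their start regions are shown beside that of Gata1. Among the members Gata1 had the narrowest range over libraries, 1.48-fold. The median range was 1.45-fold over the 9846 tested genes with a mean of at least 5 CPM. Each run holds 250 bases before and 50 after the RefSeq start, 5′ to 3′ on the gene's strand, from build GRCm38.p6. The regions are chr7:103827879-103828178 (minus strand) for Hbb-bs, chr7:103813874-103814173 (minus) for Hbb-bt, chr11:32283422-32283721 (plus) for Hba-a1, chrX:150547167-150547466 (plus) for Alas2 and chrX:7967861-7968160 (minus) for Gata1. Capitals mark GATA motifs (the run AGATAA, the run AGATAG, the run TGATAA or the run TGATAG, on either strand), the letters GATA factors prefer, and CACCC motifs (CCACACCC, CCCCACCC or CCACGCCC, either strand), the kind KLF1 binds.
Hbb-bs: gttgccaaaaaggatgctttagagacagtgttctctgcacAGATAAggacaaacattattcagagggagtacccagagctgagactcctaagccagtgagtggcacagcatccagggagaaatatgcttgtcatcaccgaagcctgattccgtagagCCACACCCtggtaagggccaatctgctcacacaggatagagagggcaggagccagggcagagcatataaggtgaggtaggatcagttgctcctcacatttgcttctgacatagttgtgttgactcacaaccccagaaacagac
Hbb-bt: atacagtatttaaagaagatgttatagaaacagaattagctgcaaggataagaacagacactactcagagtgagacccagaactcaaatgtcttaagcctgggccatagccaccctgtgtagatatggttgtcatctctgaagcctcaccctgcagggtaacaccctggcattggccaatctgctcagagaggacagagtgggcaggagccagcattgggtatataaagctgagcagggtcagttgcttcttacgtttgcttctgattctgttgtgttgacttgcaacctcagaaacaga
Hba-a1: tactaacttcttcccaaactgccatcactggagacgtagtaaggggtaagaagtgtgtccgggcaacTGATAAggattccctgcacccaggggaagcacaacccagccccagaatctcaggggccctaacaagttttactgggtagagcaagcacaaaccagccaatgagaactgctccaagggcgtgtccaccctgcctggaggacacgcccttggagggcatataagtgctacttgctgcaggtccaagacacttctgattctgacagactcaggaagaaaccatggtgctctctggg
Alas2: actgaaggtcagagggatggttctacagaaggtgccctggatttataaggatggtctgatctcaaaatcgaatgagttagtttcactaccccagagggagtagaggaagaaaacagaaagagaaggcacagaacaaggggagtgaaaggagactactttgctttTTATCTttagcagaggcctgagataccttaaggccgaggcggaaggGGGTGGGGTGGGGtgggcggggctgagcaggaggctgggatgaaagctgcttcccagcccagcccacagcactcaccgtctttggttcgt
Gata1: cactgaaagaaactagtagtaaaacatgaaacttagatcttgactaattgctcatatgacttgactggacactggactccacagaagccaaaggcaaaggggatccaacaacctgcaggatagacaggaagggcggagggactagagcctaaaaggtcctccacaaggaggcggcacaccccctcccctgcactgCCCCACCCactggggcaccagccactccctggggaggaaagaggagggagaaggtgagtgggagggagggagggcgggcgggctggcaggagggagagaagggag
Hbb-bs held 1 match of each kind, Alas2 held 1 GATA and 2 overlapping CACCC matches, Hba-a1 held 1 GATA match and Gata1 1 CACCC match, while Hbb-bt held neither. In a global alignment Hbb-bs and Hbb-bt were identical in 71.3% of 307 columns, and Hba-a1 and Hba-a2 in 98.0% of 303. Promoters were found by symbol for 28 of the 35 genes, 33 regions in all. A GATA motif stood in 19 of the 33 (57.6%) and in 29.8% of all 32851 RefSeq start regions of this length, and a CACCC motif in 9 (27.3%) and in 17.4%. Both stood in 4 (12.1%) and in 3.68%. The motif TGANTCA, which NF-E2 and AP-1 bind, stood in 3 (9.09%) and in 7.81%. A match describes the letters only and does not show binding.

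Haem synthesis genes had an order of libraries much like that of the globins, mostly with smaller ranges. Alas2, the erythroid form of the enzyme for the opening step, was at 1028, 304 and 1045 CPM in KO, and at 83.8, 382 and 245 CPM in WT. KO1 and KO3 were the high libraries and WT1 the low one, with KO2 between WT3 and WT2. Its log2 fold change was 1.74 ± 0.63 (SE, n = 3 against 3), with a 95% interval from 0.25 to 3.23 and an adjusted p of 0.168 in edgeR's test. Fech, ferrochelatase, which inserts the iron, was at 979, 350 and 1081 CPM in KO and 187, 458 and 332 CPM in WT (log2 fold change 1.30, adjusted p = 0.166). Ppox, which makes protoporphyrin, was at 285, 95.6 and 280 CPM in KO and 56.3, 104 and 88.5 CPM in WT (1.41, adjusted p = 0.118). In both, KO2 fell inside the WT range.

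The other enzymes had log2 fold changes of 1.02 for Alad (porphobilinogen synthase), 0.96 for Uros (uroporphyrinogen synthase), 1.00 for Urod (uroporphyrinogen decarboxylase) and 0.62 for Cpox (coproporphyrinogen oxidase). Their adjusted p-values lay between 0.161 and 0.436, and the groups overlapped in all 7 enzymes of the list. Alas1, the form used in all tissues, which was named after its values were seen, did not take part in this order, with 44.5, 44.6 and 31.3 CPM in KO and 53.6, 41.4 and 46.4 CPM in WT (log2 fold change −0.23, adjusted p = 0.490). Alas2 reads outnumbered Alas1 reads 23.1, 6.81 and 33.4 to 1 in KO, and 1.56, 9.22 and 5.27 to 1 in WT.

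Per kb of exon, which allows levels of different genes to be compared, Alas2 had the highest mean level of the 7 listed enzymes in KO (330 ± 176 CPM per kb, SD, n = 3), followed by Alad (222 ± 99.0). These neighbours did not differ beyond their spread. In WT the level was 110 ± 44.1 CPM per kb for Alad and 98.6 ± 62.1 for Alas2, again within the spread. Uros was the lowest of the 7 in KO, at 37.9 ± 17.2 CPM per kb, next to Ppox at 48.8 ± 23.9. In WT Ppox was at 18.4 ± 5.37 and Uros at 19.4 ± 6.68. In WT1, the library with the least globin, Alas2 was at 34.9 CPM per kb and so below Alad (67.8), Urod (50.5) and Cpox (46.1). In KO1 and KO3 it was above all of them.

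**Figure D3:**
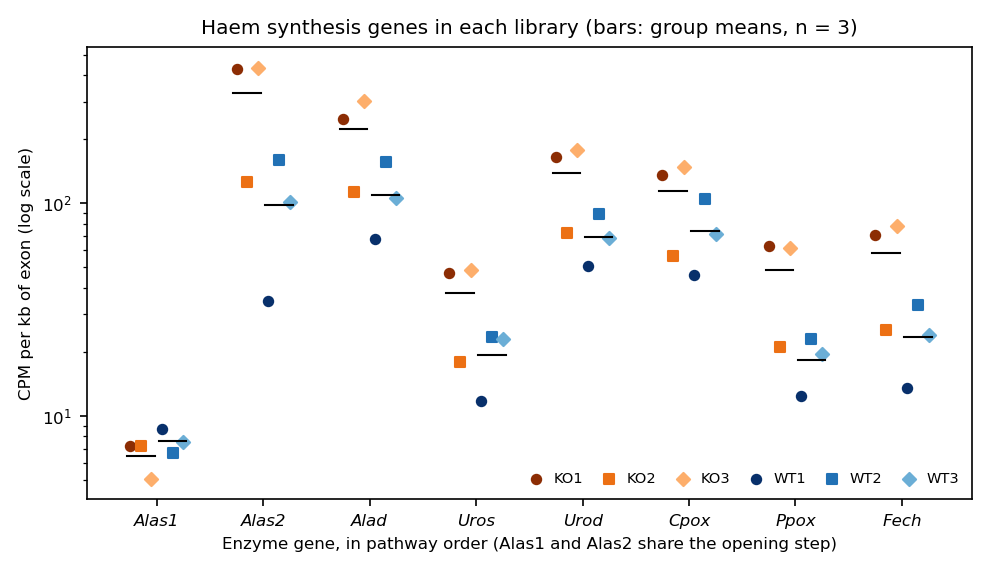
Levels of the 7 listed haem synthesis enzymes in pathway order, with Alas1, in CPM per kb of exon on a log axis, with a point per library and bars at the group means. Alas2 spans 34.9 to 435 CPM per kb, a wider range than any later enzyme shown, and Alas1 stays between 5.07 and 8.68.

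Of the mitochondrial carriers, Slc25a37 (mitoferrin-1, which brings iron into the mitochondrion) was at 383, 121 and 403 CPM in KO and 29.4, 115 and 77.3 CPM in WT. Every KO library exceeded every WT library, KO2 by the least. Its log2 fold change of 2.03 ± 0.59 had an adjusted p of 0.111 in edgeR's test and of 0.0420 in DESeq2's. Slc25a38, the glycine carrier that supplies the opening step of haem synthesis, was at 127, 51.1 and 139 CPM in KO and 41.2, 96.8 and 73.2 CPM in WT (0.58, adjusted p = 0.482), with overlapping groups.

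Membrane genes held the widest range of all. Slc4a1 encodes band 3, the anion exchanger to which the red cell skeleton is anchored. It was at 2139, 576 and 2545 CPM in KO, and at 124, 730 and 412 CPM in WT, a 20.6-fold range over libraries. KO2 again lay between WT3 and WT2. The log2 fold change was 2.05 ± 0.73 (SE, n = 3 against 3), with a 95% interval from 0.34 to 3.77 and an adjusted p of 0.163 in edgeR's test. Its value was 1.60 without WT1 and 2.71 without WT2.

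Partners of band 3 followed it. Epb42, protein 4.2, was at 268, 66.4 and 252 CPM in KO and 16.2, 81.0 and 50.6 CPM in WT. Ank1, the ankyrin that ties band 3 to spectrin, was at 83.6, 30.4 and 96.0 CPM in KO and 9.37, 46.5 and 27.3 CPM in WT. Sptb, beta-spectrin, was at 418, 102 and 498 CPM in KO and 59.7, 196 and 118 CPM in WT. In all 3 genes KO1 and KO3 were high, WT1 was low and KO2 lay inside the WT range, with adjusted p-values of 0.153, 0.261 and 0.234. Epb41, protein 4.1, which many cell types express, had a narrower range: 615, 337 and 652 CPM in KO and 292, 341 and 307 CPM in WT. Here KO2 was level with WT2, and the adjusted p was 0.120.

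Blood group proteins showed the same layout. Rhd, the Rh protein, was at 363, 90.6 and 477 CPM in KO and 25.2, 153 and 97.8 CPM in WT, and Rhag, its partner glycoprotein, at 285, 84.4 and 356 CPM against 84.9, 176 and 109 CPM. Rhag was lowest in KO2, just below WT1. Kel, the Kell protease, was at 263, 72.5 and 245 CPM in KO and 29.6, 101 and 75.1 CPM in WT. Ermap, the Scianna antigen, was at 305, 74.1 and 393 CPM in KO and 43.3, 191 and 114 CPM in WT. None of these 4 passed edgeR's test (adjusted p between 0.190 and 0.382). Aqp1, the water channel, differed in that all KO libraries (330, 168 and 515 CPM) were above all WT libraries (32.2, 129 and 105 CPM). Its log2 fold change of 1.93 ± 0.57 had an adjusted p of 0.114 in edgeR's test and 0.0245 in DESeq2's.

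The receptors ranged 2.41-fold (Epor) and 3.96-fold (Tfrc) over the libraries. Epor was at 145, 100 and 177 CPM in KO and 73.5, 130 and 97.6 CPM in WT, with a log2 fold change of 0.49 and a 95% interval from −0.12 to 1.10. Tfrc was at 966, 272 and 1077 CPM in KO and 346, 665 and 422 CPM in WT (0.69, interval −0.47 to 1.85), and KO2 was the lowest of all 6 libraries. Neither receptor passed the test, and both intervals include a 2-fold rise. Bpgm, which makes the 2,3-bisphosphoglycerate that tunes oxygen release, was at 212, 106 and 222 CPM in KO and 32.5, 90.0 and 56.3 CPM in WT, a 6.84-fold range without overlap (1.59 ± 0.42, adjusted p = 0.0857 in edgeR's test and 3.56e-04 in DESeq2's).

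The carbonic anhydrase genes had different orders of libraries. Car2 was at 4740, 1791 and 4801 CPM in KO and 1655, 2938 and 2126 CPM in WT. Its log2 fold change was 0.75, with a 95% interval from −0.15 to 1.66 and an adjusted p of 0.307 in edgeR's test. Car1 was at 507, 498 and 837 CPM in KO and 461, 925 and 531 CPM in WT, with WT2 the highest library. The log2 fold change of Car1 was −0.06 (adjusted p = 0.940 in edgeR's test), with a 95% interval from −0.78 to 0.67 that overlaps the interval of Car2. Its sign turned without KO1 (0.06), without KO2 (0.06) and without WT2 (0.30).

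The transcription factors and nuclear proteins spread the least of the 8 roles. Nfe2, the subunit of NF-E2 that red cells and megakaryocytes share, was at 609, 524 and 549 CPM in KO and 408, 395 and 391 CPM in WT. The KO libraries were all higher, and neither group spread far: the within-group SD of log2(CPM + 1) was 0.0810, larger than in only 11.5% of the 9846 tested genes with a mean of at least 5 CPM. The log2 fold change was 0.49 ± 0.08 (SE, n = 3 against 3), a 1.41-fold rise with a 95% interval from 0.31 to 0.68 and an adjusted p of 0.0265 in edgeR's quasi-likelihood test. Leaving out any library but KO2 ended the call, while the log2 fold change stayed between 0.43 and 0.53 in all 6 such fits.

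Gata1, the master regulator of the lineage, was at 312, 227 and 324 CPM in KO and 219, 262 and 226 CPM in WT (0.29, 95% interval −0.06 to 0.64, adjusted p = 0.310). Its highest library exceeded its lowest 1.48-fold, where the median was 1.45-fold over tested genes with a mean of at least 5 CPM. Klf1, which drives the beta-globin gene, varied 4.37-fold, with 429, 181 and 517 CPM in KO and 118, 311 and 210 CPM in WT (0.82, adjusted p = 0.345). Bcl11a, the repressor of embryonic and fetal globin genes, which lymphoid cells also express, was at 161, 186 and 168 CPM in KO and 93.2, 147 and 127 CPM in WT. It was the only member with KO2 as the highest library, and it did not pass the test (0.49 ± 0.16, adjusted p = 0.147).

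Hemgn, a nuclear protein of erythroid and stem cells, behaved like the membrane genes and not like the factors, with 280, 72.1 and 334 CPM in KO and 37.3, 98.0 and 57.1 CPM in WT (1.83, adjusted p = 0.132). The erythroid TRIM proteins, which carry a ubiquitin ligase domain, differed from each other. Trim10 was at 327, 112 and 305 CPM in KO and 25.5, 114 and 63.5 CPM in WT (1.88, adjusted p = 0.129), a 12.9-fold range. Trim58, which acts late in erythroblasts on the motor protein dynein, was at 54.7, 40.3 and 57.4 CPM in KO and 68.4, 53.1 and 50.7 CPM in WT (−0.18, 95% interval −0.59 to 0.24). It was the only member that was highest in WT1, the library with the least globin.

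Scaling each gene to the globin reads of its own library separated the members into genes that kept pace with globin and genes that did not. Reads of Alas2 came to 5.53, 4.89 and 4.96 per 100 adult globin reads in KO, and to 4.91, 4.56 and 5.45 in WT. The highest library thus exceeded the lowest 1.21-fold, where the CPM of Alas2 ranged 12.5-fold. Trim10 (1.32-fold), Ank1 (1.35-fold) and Kel (1.49-fold) followed, and 11 of the 31 members other than globins stayed within 2-fold, against 0.488% of 9842 tested genes with a mean of at least 5 CPM. These 11 were Alas2, Trim10, Ank1, Kel, Slc25a37, Epb42, Rhd, Slc4a1, Aqp1, Bpgm and Hemgn.

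In 20 of the 31 the range relative to globin was narrower than the range in CPM (2.21% of those 9842 genes). It was wider in 11: Trim58, Car1, Nfe2, Gata1, Bcl11a, Epor, Epb41, Tfrc, Car2, Cpox and Slc25a38. Nfe2 reads came to 3.27, 8.44 and 2.61 per 100 globin reads in KO and 23.9, 4.71 and 8.73 in WT, a 9.16-fold range. Those of Gata1 came to 1.68, 3.66 and 1.54 in KO and 12.8, 3.13 and 5.05 in WT. For both genes WT1 was far above the other libraries on this scale, as the library with the fewest globin reads. Slc4a1 outnumbered Gata1 reads 6.85, 2.53 and 7.85 to 1 in KO, 2.79 and 1.82 to 1 in WT2 and WT3, and only 0.564 to 1 in WT1. These ratios describe 6 libraries and carry no test.

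**Figure D4:**
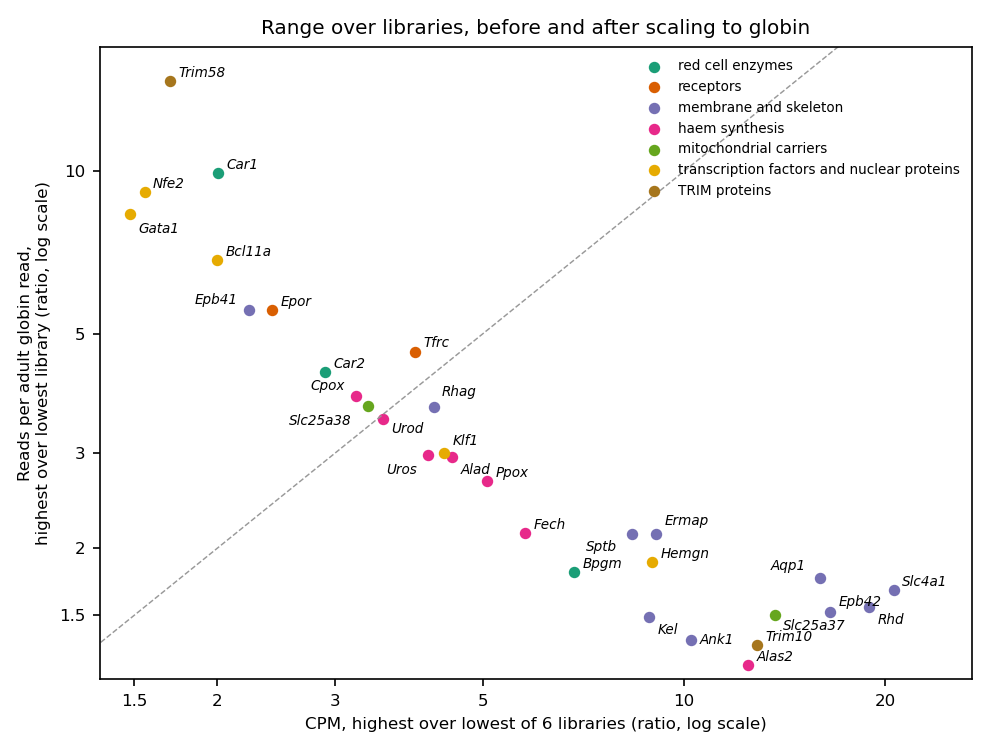
For each member other than the adult globins, the ratio of the highest to the lowest library in CPM (horizontal) and in reads per adult globin read (vertical), both on log axes; the dashed line marks equal ranges. Alas2, Trim10, Ank1 and Kel lie lowest, at 1.21 to 1.49 on the vertical axis, and Nfe2, Gata1, Car1 and Trim58 lie at the upper left.

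Within groups, the members spread more than most genes. The median within-group SD of log2(CPM + 1) was 0.850 over the 35 members and 0.166 over the 9846 genes with a mean of at least 5 CPM. Globins (median 1.09) and membrane genes (1.04) spread the most and the transcription factors and nuclear proteins (0.247) the least. The range from the lowest to the highest library was at least 5-fold in 19 of 35 members and in 4.49% of those genes. With this spread, a fold change of 4.16 for Slc4a1 did not pass the test, while one of 1.41 for Nfe2 did.

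Other genes of the pathway, 97 genes in 5 lists, leaned the same way. Of the 90 tested, 80 had a positive log2 fold change (50.9% of all tested genes), and the median was 0.47. In edgeR's test 7 rose and 1 fell (3.56% of all genes were called, 1.64% as higher and 1.92% as lower). Among 15 tested red cell membrane genes 2 rose. Slc14a1, the urea transporter that carries the Kidd antigen, was at 566, 436 and 489 CPM in KO and 218, 253 and 255 CPM in WT (adjusted p = 0.0125, log2 fold change 1.04), and Art4, which carries the Dombrock antigen, at 101, 70.4 and 90.5 against 47.7, 45.2 and 50.7 CPM (0.87, adjusted p = 0.0297). Both were without overlap and spread little within groups.

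Among 22 regulators of the lineage 3 rose and 1 fell, where 1.64% of all tested genes rose and 1.92% fell. Jak2, the kinase bound to the erythropoietin receptor, rose 1.44-fold (118, 105 and 120 against 83.9, 81.4 and 72.7 CPM, adjusted p = 0.0364). Bcl2l1, the survival gene for BCL-XL, rose 1.67-fold (adjusted p = 0.0494) and Kit, the stem cell factor receptor of early progenitors, 3.64-fold (75.9, 74.8 and 44.6 against 25.6, 9.90 and 18.1 CPM, adjusted p = 0.0450). Other scalings, filters or tests alone ended calls of these: Bcl2l1 had an adjusted p of 0.0515 with DESeq2 size factors and 0.0517 in limma-voom, and Kit one of 0.0513 with total counts as scaling and 0.0584 without a low-count filter, both in edgeR's test. Cited2, a transcriptional co-regulator, fell from 383 ± 45.0 CPM in WT to 212 ± 27.8 CPM in KO (SD, n = 3; log2 fold change −0.85, adjusted p = 0.0249). Of 18 genes of red cell maturation all had a positive log2 fold change (50.9% of all tested genes) and 2 rose (1.64% of all tested genes). These were Tfdp2, the partner of E2F factors (135 ± 36.2 against 42.6 ± 3.25 CPM, 1.67, adjusted p = 0.0154), and Xpo7, a nuclear exporter (365, 239 and 350 against 128, 171 and 172 CPM, 1.02, adjusted p = 0.0391).

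Of 33 tested genes of haem and iron handling 0 passed edgeR's test, 5 had an unadjusted p below 0.05, and 28 had a positive log2 fold change. The 5 were all higher, where 11.6% of all tested genes were higher at that p and 50.9% had a positive log2 fold change. The smallest p-value was that of Slc40a1, the iron exporter ferroportin (76.9, 29.8 and 61.6 against 10.7, 28.0 and 19.5 CPM, adjusted p = 0.104). Of 7 embryonic and minor globin genes 2 were tested and 0 passed, with 1 at an unadjusted p below 0.05. That gene, the theta-globin gene Hbq1b, was at 17.8, 7.47 and 25.8 CPM in KO and 2.73, 6.43 and 3.82 CPM in WT (adjusted p = 0.0831). The embryonic genes Hbb-y, Hbb-bh1 and Hba-x had at most 30 counts in a library. Leaving out 1 library at a time ended the calls of Kit in all 6 such fits, of Art4, Jak2, Bcl2l1 and Xpo7 in 5, of Cited2 in 4, and of Slc14a1 and Tfdp2 in 2 (without KO3 and without WT3).

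Markers of other blood cells were counted beside these results. Summed over 7 B cell markers the level was 104, 56.7 and 154 CPM in KO and 5.45, 39.7 and 6.06 CPM in WT, so KO2 was again the lowest KO library and WT2 the highest WT library. Of the 6 tested B cell markers 2 rose, where 1.64% of all tested genes rose and 1.92% fell. The 10 T and NK cell markers summed to 18.9 to 41.3 CPM in KO and 14.5 to 21.2 CPM in WT, with 4 of 9 tested rising. Much of that sum was Lck, at 10.7 to 18.4 CPM over all 6 libraries with a log2 fold change of −0.06. Genes singled out after their values were seen were the 3 CD3 genes, the T cell receptor genes Trac and Trbc2, and Cd8a. They were at 0.392 to 5.90 CPM in KO and 0 to 0.396 CPM in WT, and KO2 was the lowest KO library in each. Cd4 was also higher in KO, but KO2 was its highest library (1.35, 2.11 and 1.43 CPM, against 0 CPM in each WT library). Klrb1c was lower in KO, with overlapping groups (log2 fold change −1.84, adjusted p = 0.191 in edgeR's test). The 11 macrophage markers summed to 70.5 to 179 CPM in KO and 29.7 to 49.7 CPM in WT, with 2 of 11 rising and KO1, not KO3, the highest. The 10 neutrophil markers were highest in WT1 (748 CPM, against 16.8 to 234 CPM in the other 5). Of the 9 tested, 0 passed edgeR's test, 4 had a positive and 5 a negative log2 fold change. At an unadjusted p below 0.05, 3 of the 9 were lower. Over all genes, 3355 of 15232 tested had such a p, and 1770 of them were higher. Also highest in WT1 were the 10 megakaryocyte markers (1679 CPM, against 664 to 1103 CPM), of which 1 rose and 1 fell, and the 8 mast cell and basophil markers (130 CPM, against 45.6 to 74.1 CPM), of which 1 fell. WT1 was thus lowest in red cell genes and highest in these 3 lists. The part of other cell types in the red cell results was not tested.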

How the data were processed

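The authors deposited 1 table of raw read counts per gene for the 6 libraries. The submitters' processing notes list STAR 2.7.9a, featureCounts, Subread 2.0.1 and fastp 0.23.1; settings, genome build and annotation were not given in the sources used here. Per the labels' protocols, RNA was pre-amplified from the poly(A) tail (SMARTer) and tagmented (Nextera XT), without molecular identifiers or strand, so overlapping antisense reads cannot be told apart and intervals on counts cover counting error only.

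Counts were filtered with filterByExpr (minimum count 10, minimum total count 15), scaled by TMM and compared in edgeR 4.0.16 (R 4.3.3) with the robust quasi-likelihood F test, KO over WT, no covariate, Benjamini-Hochberg adjustment over all 15232 genes and a threshold of 0.05. The SE is the log2 fold change divided by the square root of F, and 95% intervals use the residual plus prior degrees of freedom. The biological coefficient of variation was 0.323, and 3 counts equal 0.0594 to 0.0727 CPM. Lengths are exon unions of GENCODE M21; start regions are RefSeq's. No pair of libraries in a group agreed within sampling noise (chi-square per degree of freedom 35.4 to 126). The code was tested on simulated counts. Named beyond the 35 members are, from each pathway list, up to 6 genes past the threshold, or else the 2 with the smallest p among those at 1 CPM or more. Some genes the rule names are not reported here. The members and lists were chosen with earlier results of these data known. Alternatives were DESeq2 1.42.0 size factors or total counts as scaling, 2 other low-count filters, DESeq2's Wald test, limma-voom (limma 3.58.1), the replicate number as a block, and each library left out.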

Additional observations from a re-analysis of the deposited data

How the results depend on the processing

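The main counts of higher and lower genes were 250 and 293 over all genes, 1 and 0 over the red cell genes, and 7 and 1 over the other genes of the pathway. DESeq2's Wald test gave 1075 and 920 over all genes, 7 and 0 over the red cell genes and 22 higher over the other pathway genes. With 1 library left out, the counts ranged from 13 to 371 higher and 29 to 247 lower over all genes, from 0 to 5 higher over the red cell genes, and from 0 to 17 higher and 0 to 1 lower over the other pathway genes. No sign was seen that replicate numbers pair the libraries. Deviations of same-numbered libraries from their group means correlated at −0.277 to 0.0425, and 1 of 6 libraries correlated best with its own number. With 3 libraries in a group, these correlations cannot exclude a pairing, and the labels do not state one. With the replicate number as a block, 8 genes were higher and 20 lower over all genes, 0 of the red cell genes were called (6 at an unadjusted p below 0.05), and 0 higher and 0 lower were called over the other pathway genes. The median log2 fold change of the red cell genes was 1.30 and lay between 0.90 and 1.65 in all alternatives run. Over the 35 genes and 13 alternatives, 436 values kept direction and side of the threshold, 10 passed it anew, 6 lost it and 3 turned sign. The 3 were those of Car1 without KO1 (0.06), KO2 (0.06) and WT2 (0.30), in a range down to −0.36 without KO3; the cause was not tested. Scaling moved the median of all genes by less than 0.02. Depth did not limit the red cell genes, which had at least 473 counts in every library, while most embryonic globin genes were too low to test.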
